A study of Homo sapiens with 4 samples.

Results

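The 10 genes described here encode proteins of the primary (azurophil) granule of myeloid cells and their close companions: PRTN3, AZU1, ELANE, CTSG, MPO, CFD, RNASE2, RNASE3, LYZ and SERPINB10. They were taken as a given list of symbols, with no cutoff on a measured value but with earlier results of these data known. All 10 were found among 67017 genes of the count table. Counts came from OCI-AML3, a long-established line of human acute myeloid leukaemia in which NPM1 carries its cytoplasmic mutation. In the PIG-LONA group (n = 2) the cells carried the retroviral pMSCV-PIG vector with the whole sequence of the long noncoding RNA LONA behind an RNA polymerase II promoter. In the PIG-EMPTY group (n = 2) they carried the same vector with no LONA. Both vectors also express a puromycin resistance gene and GFP from a PGK promoter, all cells were sorted for GFP, and each vector went through 2 independent transductions. The replicates are therefore transductions of a single line, and no other line was measured. The SE and intervals of fold changes given below come from the edgeR fit, which pools each gene's error with that of all tested genes. The comparison of the vectors asks how LONA affects genes of myeloid differentiation. The level of LONA itself was not analysed here.

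Azurophil granules form at the promyelocyte stage of granulocyte development, and their cargo is transcribed in a short window that closes as the cell matures. The cargo includes serine proteases of the chymotrypsin fold (ELANE, PRTN3 and CTSG), a catalytically inactive relative (AZU1), the haem enzyme MPO and the bacteriolytic enzyme LYZ. ELANE, PRTN3, AZU1 and the complement protease gene CFD lie beside each other on chromosome 19. RNASE2 and RNASE3 are known best as eosinophil granule ribonucleases, and SERPINB10 encodes bomapin, a nuclear serpin of myeloid cells, so these 3 are not typical cargo of the azurophil granule.

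The promoters of the members that passed the test upward, PRTN3 and AZU1, and of the paralogs RNASE2 and RNASE3, which differ widely in level, are shown from RefSeq on GRCh38.p14. Each run holds the 250 bases before the RefSeq gene start, 5′ to 3′ on the gene's strand. The gene coordinates given further on are those of GENCODE, whose bodies begin before the RefSeq start in PRTN3, AZU1 and RNASE2 and after it in RNASE3, so the first 3 runs reach into the GENCODE gene. Capitals mark matches, on either strand, to motifs of factors known to drive granule genes: C/EBP (TTNNGNAA), PU.1 (GAGGAA), MYB (CAACNG) and RUNX (TGTGGT).
PRTN3 chr19:840749-840998 (+ strand): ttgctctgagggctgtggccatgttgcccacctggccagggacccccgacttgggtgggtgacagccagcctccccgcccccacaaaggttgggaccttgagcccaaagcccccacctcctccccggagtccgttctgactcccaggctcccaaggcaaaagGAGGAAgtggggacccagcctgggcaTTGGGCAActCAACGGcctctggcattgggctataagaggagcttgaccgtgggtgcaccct
AZU1 chr19:827587-827836 (+ strand): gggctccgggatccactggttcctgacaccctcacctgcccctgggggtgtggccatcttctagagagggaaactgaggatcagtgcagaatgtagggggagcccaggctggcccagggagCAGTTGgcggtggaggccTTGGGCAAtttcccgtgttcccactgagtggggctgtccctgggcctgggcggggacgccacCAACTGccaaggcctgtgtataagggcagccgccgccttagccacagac
RNASE2 chr14:20955237-20955486 (+ strand): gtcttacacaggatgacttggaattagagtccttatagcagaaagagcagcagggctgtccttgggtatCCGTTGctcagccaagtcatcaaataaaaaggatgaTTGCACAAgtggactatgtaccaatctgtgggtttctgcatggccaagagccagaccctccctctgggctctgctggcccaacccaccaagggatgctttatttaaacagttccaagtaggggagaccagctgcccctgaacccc
RNASE3 chr14:20891135-20891384 (+ strand): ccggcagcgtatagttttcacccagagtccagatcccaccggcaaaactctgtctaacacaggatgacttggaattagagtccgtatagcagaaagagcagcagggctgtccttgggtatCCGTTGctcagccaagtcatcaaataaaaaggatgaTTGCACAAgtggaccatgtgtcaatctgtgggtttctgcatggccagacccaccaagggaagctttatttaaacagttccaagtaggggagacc

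In the PRTN3 promoter a C/EBP match began 62 bases before the start, a PU.1 match 88 bases before it and a MYB match 52 bases before it. The AZU1 promoter held a C/EBP match at 111 bases and MYB matches at 129 and 49 bases before the start. The C/EBP match of both genes had the same letters, TTGGGCAA, which 0.769% of all 35116 promoters of the same length hold. These letters were chosen after both sequences were seen, so the share is a description with no test and does not link the genes. RNASE2 and RNASE3 each held a C/EBP and a MYB match, and their promoters shared an identical run of 86 bases. PRTN3 and AZU1 shared no run longer than 9 bases. Over all promoters, 33.2% held the C/EBP letters, 23.6% the PU.1 letters, 27% the MYB letters and 11% the RUNX letters, so single matches are common. The promoters of CTSG, with PU.1 matches at 46 and 16 bases before the start, and of CFD, with no match, were also found. No RUNX match lay in any of these 6 windows, and no match overlapped another. A match is a description of letters and does not show a bound site. ELANE, MPO, LYZ and SERPINB10 were not among the matched entries.

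The libraries held 30181550 and 38358442 counted reads in PIG-LONA, against 29819572 and 32350832 in PIG-EMPTY. Mitochondrial genes took 6.32% to 7.10% of counts in PIG-LONA and 6.61% to 6.80% in PIG-EMPTY. Of 15918 genes tested with edgeR, 467 were higher and 558 lower in PIG-LONA at an adjusted p under 0.05, and the median log2 fold change over all of them was 0.00. PTPRC and CD33, the pan-leukocyte and myeloid surface markers, were well detected, at 336 ± 19.8 and 99.2 ± 1.05 CPM in PIG-LONA and 361 ± 5.27 and 102 ± 3.03 CPM in PIG-EMPTY (SD, n = 2 each). KIT, PROM1 and HLA-DRA, further markers of blasts, were at or near 0 in all 4 libraries. CPM stands throughout for counts scaled to a common library size by TMM.

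All 10 members were tested. PRTN3 and AZU1 rose, LYZ fell, and the other 7 did not pass the test. That is 2 members of 10 called higher, where 2.93% of all tested genes were, and 1 called lower, where 3.51% were; in either direction 6.44% of genes were called. With 10 genes these shares rest on 3 calls, and the median log2 fold change of the members was 0.04, near the 0.00 of all genes. Of the 467 genes called higher, 226 lay on chromosome 6, where no member lies. The 2.93% used here and below includes them. In a fit without chromosome 6 genes, 219 of 15119 tested genes were higher and 441 lower, with 2 members higher and 1 lower. In 5 members both PIG-LONA libraries lay above both PIG-EMPTY libraries, in 1 below, and in 4 they overlapped (for RNASE2, counted among the 5, the nearest libraries were 234.9 and 234.6 CPM), while of all tested genes 23.7% lay above, 24.4% below and 48.0% in either direction without overlap. The members' CPM summed to 3681 and 3403 in PIG-LONA, against 3512 and 3478 in PIG-EMPTY, so the groups overlapped. The largest part came from CTSG, with 1702 and 1526 CPM in PIG-LONA, against 1685 and 1695 CPM in PIG-EMPTY. The sum therefore says little about the less abundant members. In bulk RNA, a change in the number of cells that express a gene and a change in RNA per cell cannot be told apart.

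**Figure D1:**
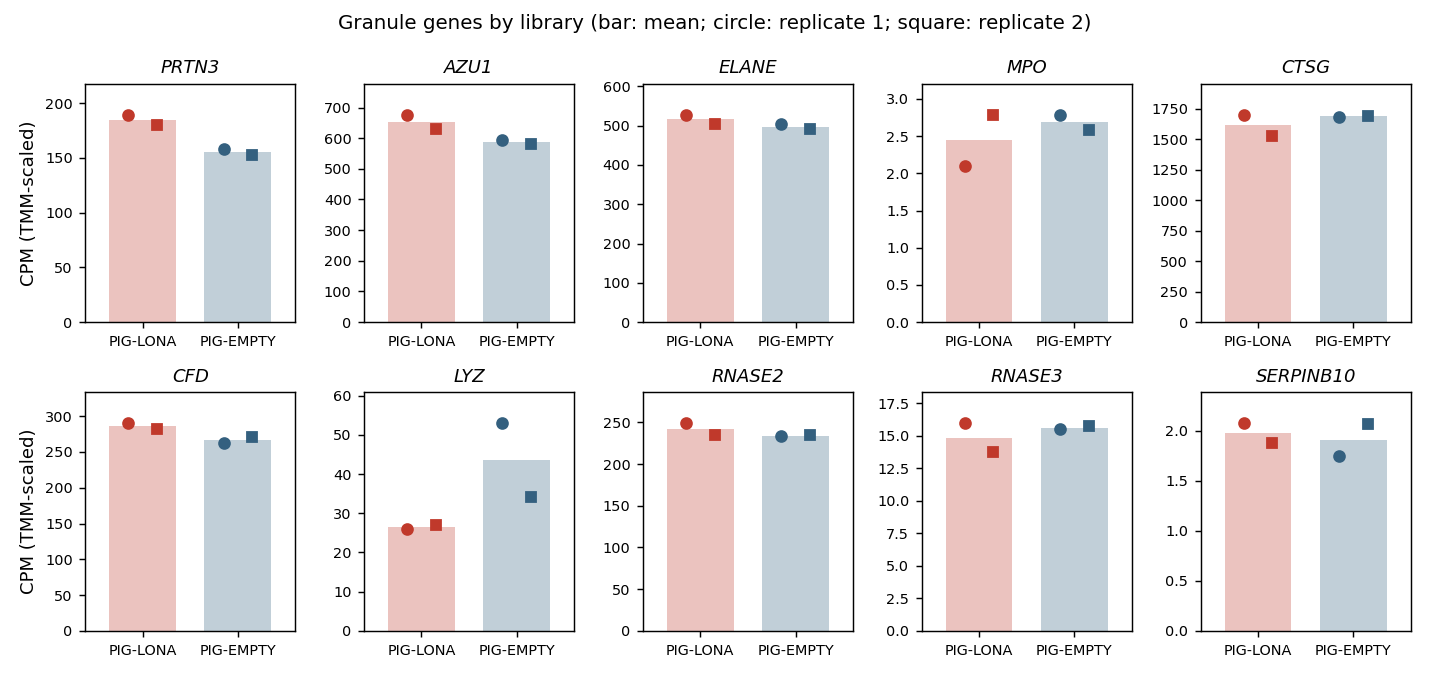
CPM of the 10 granule genes in each library, with PIG-LONA left of PIG-EMPTY; bars are means of 2 libraries, circles replicate 1 and squares replicate 2. PRTN3 and AZU1 are higher in both PIG-LONA libraries, and LYZ is lower in both, with PIG-EMPTY replicate 1 at 52.9 CPM and replicate 2 at 34.2 CPM.

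Levels per length, given as TPM from the union of exons, placed CTSG first among the members and MPO and SERPINB10 last. CTSG stood at 4133 and 3873 TPM in PIG-LONA, against 4159 and 4230 TPM in PIG-EMPTY, and made up a mean of 43.3% of the members' summed TPM over the 4 libraries. ELANE followed with 17.8%, AZU1 with 12.5%, RNASE2 with 11.4%, CFD with 8.15% and PRTN3 with 5.35% of that sum. In all 4 libraries these 6 genes kept this order, and the ranges of neighbours in it did not overlap. RNASE3 and LYZ, at 66.5 to 74.9 TPM and 49.2 to 102 TPM over the libraries, overlapped each other. MPO, at 1.99 to 2.75 TPM, and SERPINB10, at 2.19 to 2.62 TPM, overlapped as well.

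**Figure D2:**
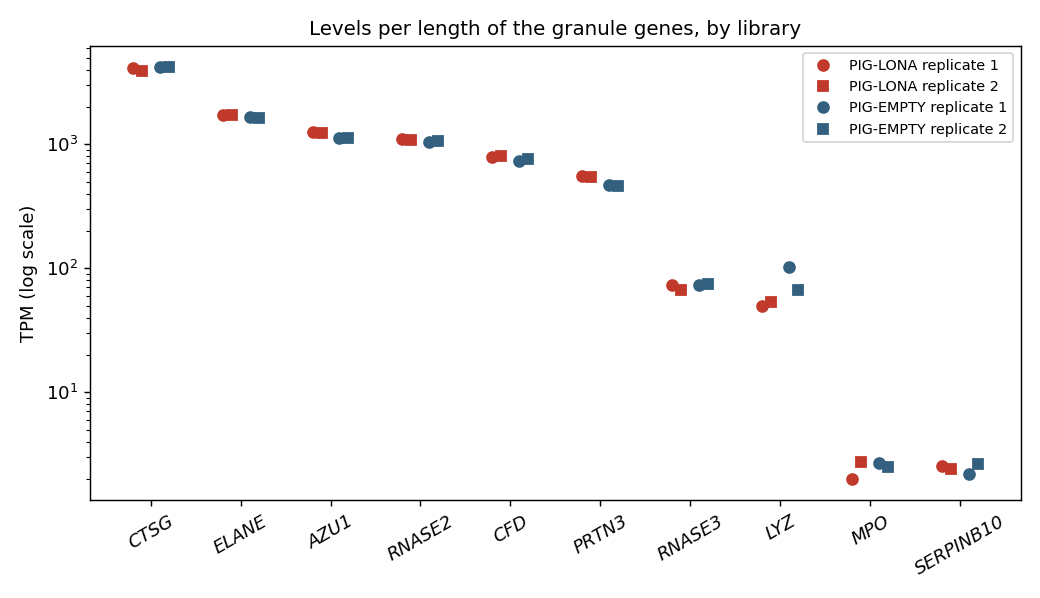
TPM on a log scale of the 10 genes by library, ordered by mean level, with PIG-LONA in red left of PIG-EMPTY in blue. CTSG is highest, up to 4230 TPM, 5 further genes lie between 457 and 1714 TPM, RNASE3 and LYZ lie between 49.2 and 102 TPM, and MPO and SERPINB10 stay under 3 TPM.

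PRTN3 encodes proteinase 3, an elastase-like serine protease and the main target of autoantibodies in granulomatosis with polyangiitis. The gene (ENSG00000196415, chr19:840960-848175, plus strand) had 5670 and 6933 reads in PIG-LONA, against 4722 and 4959 reads in PIG-EMPTY, which is 189 and 180 CPM against 159 and 153 CPM. Both PIG-LONA libraries stood above both PIG-EMPTY libraries. PRTN3 rose by a log2 fold change of 0.25 ± 0.04 (SE), a 1.19-fold higher level with a 95% interval of 1.12 to 1.26 (edgeR quasi-likelihood test, adjusted p = 0.000436). It was called in all 17 alternative settings, at log2 fold changes between 0.21 and 0.29.

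AZU1 encodes azurocidin, an antimicrobial and chemotactic protein that has lost its protease activity. The gene (ENSG00000172232, chr19:825097-832018, plus strand) gave 676 and 629 CPM in PIG-LONA, against 595 and 579 CPM in PIG-EMPTY. Here too the groups did not overlap. AZU1 rose by 0.15 ± 0.04 on the log2 scale, a 1.11-fold higher level (edgeR, adjusted p = 0.0153). The call was lost with no filter on low counts (edgeR, adjusted p = 0.0856) and when either PIG-EMPTY replicate was left out. The log2 fold change was then 0.17 without replicate 1 and 0.13 without replicate 2. It stayed between 0.10 and 0.21 in all 17 settings.

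ELANE encodes neutrophil elastase, whose inherited mutations cause severe congenital and cyclic neutropenia. It lies between PRTN3 and CFD (ENSG00000197561, chr19:851014-856247, plus strand). ELANE had 528 and 505 CPM in PIG-LONA, against 504 and 491 CPM in PIG-EMPTY. The groups did not overlap, but the lower PIG-LONA library and the higher PIG-EMPTY library were nearly level. The log2 fold change of 0.05 (95% interval -0.02 to 0.13) did not pass (edgeR, adjusted p = 0.453). It was 0.02 without PIG-LONA replicate 1 and 0.09 without replicate 2, in fits with a single PIG-LONA library.

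CFD encodes complement factor D, the serine protease that cleaves factor B in the alternative pathway. The gene (ENSG00000197766, chr19:859643-863630, plus strand) had 290 and 282 CPM in PIG-LONA, against 262 and 271 CPM in PIG-EMPTY. The groups did not overlap, but the log2 fold change of 0.10 ± 0.04 (95% interval 0.03 to 0.18) missed the threshold (edgeR, adjusted p = 0.117). It passed once a trend with GC content and length was removed (0.13, edgeR, adjusted p = 0.0143). With a single PIG-LONA library kept, it was 0.08 without replicate 1 and 0.12 without replicate 2.

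The 4 chromosome 19 members, AZU1, PRTN3, ELANE and CFD in this order, span 38.5 kb, with 8.9 kb between AZU1 and PRTN3, 2.8 kb between PRTN3 and ELANE and 3.4 kb between ELANE and CFD. The sign of the log2 fold change was positive in each of them, but its size differed. Relative to ELANE within the same library, PRTN3 had 0.359 and 0.357 reads per ELANE read in PIG-LONA, against 0.314 and 0.311 in PIG-EMPTY. AZU1 had 1.28 and 1.24 reads per ELANE read in PIG-LONA, against 1.18 and 1.18 in PIG-EMPTY. These ratios, chosen after the values were seen, need no library scaling and are given with no test. Of 39 other genes within 250 kb of the cluster, 23 were tested and 0 passed in edgeR, where 6.44% of all tested genes did. In edgeR 3 had an unadjusted p under 0.05, and DESeq2 or limma-voom gave 0 calls. These 3 were KISS1R (0.87 ± 0.30), HCN2 (-0.31 ± 0.12) and PLPPR3 (-0.10 ± 0.04 on the log2 scale). The median log2 fold change of the 23 was 0.00, as it was for the 1148 tested genes of chromosome 19.

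**Figure D3:**
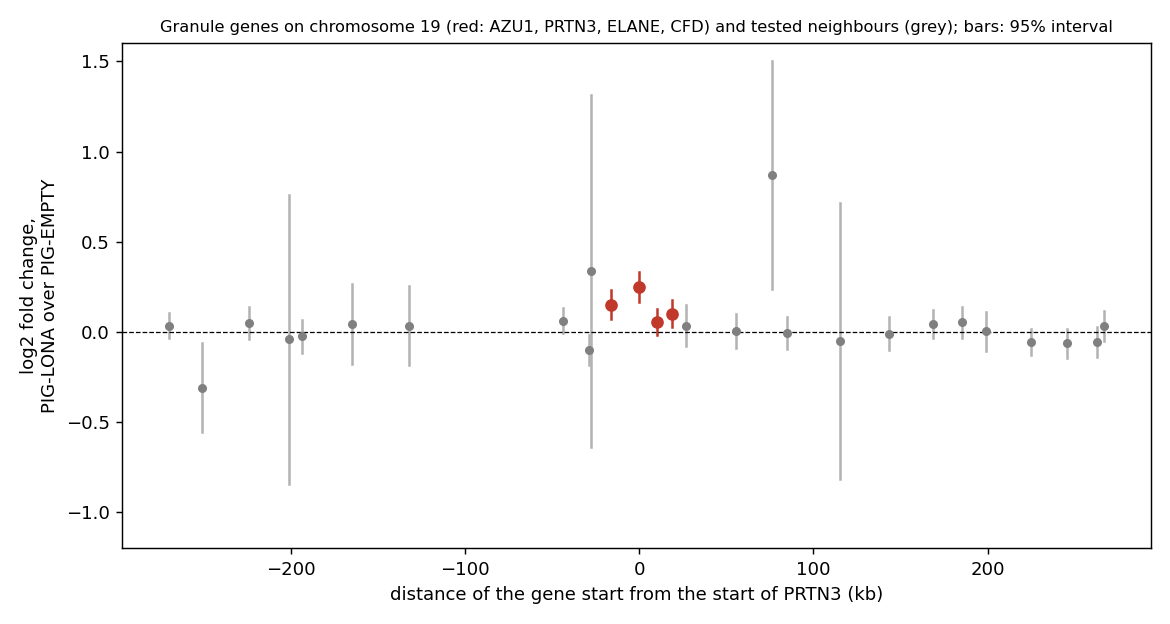
Log2 fold change of PIG-LONA over PIG-EMPTY for the 4 chromosome 19 members (red) and tested neighbours (grey) against the distance of each gene start from that of PRTN3 in kb; bars are 95% intervals. PRTN3 at 0.25 and AZU1 at 0.15 passed the test, and none of the 23 neighbours did.

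CTSG encodes cathepsin G, a chymotrypsin-like protease on chromosome 14, away from the others (ENSG00000100448, chr14:24573522-24576260, minus strand). It was the most abundant member, with 1702 and 1526 CPM in PIG-LONA, against 1685 and 1695 CPM in PIG-EMPTY. The PIG-LONA libraries lay on either side of the PIG-EMPTY libraries. Its log2 fold change was -0.07 ± 0.04 (95% interval -0.15 to 0.02; edgeR, adjusted p = 0.408). The value depended on single PIG-LONA libraries: without replicate 1 it was -0.15, and without replicate 2 it was 0.01. Each of these fits holds a single PIG-LONA library, so no spread within PIG-LONA enters its error.

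MPO encodes myeloperoxidase, the haem enzyme that makes hypochlorous acid and a classic marker of myeloid blasts. The gene (ENSG00000005381, chr17:58269856-58280935, minus strand) had 63 and 107 reads in PIG-LONA, against 83 and 84 reads in PIG-EMPTY. That is 2.10 and 2.78 CPM against 2.79 and 2.59 CPM, and the groups overlapped. With so few reads the log2 fold change of -0.11 ± 0.19 carries a wide 95% interval of -0.51 to 0.28 (edgeR, adjusted p = 0.825). CTSG thus stood at 4133 TPM beside 1.99 TPM of MPO in PIG-LONA replicate 1, and at 4159 TPM beside 2.68 TPM in PIG-EMPTY replicate 1.

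LYZ encodes lysozyme, which cleaves bacterial peptidoglycan and is made by monocytes and macrophages as well as by granulocytes. The gene (ENSG00000090382, chr12:69348341-69354234, plus strand) had 779 and 1042 reads in PIG-LONA, against 1575 and 1110 reads in PIG-EMPTY. In CPM this is 26.0 and 27.1 in PIG-LONA, against 52.9 and 34.2 in PIG-EMPTY. The PIG-LONA libraries were close together and below both PIG-EMPTY libraries, which differed from each other by 0.63 on the log2 scale. LYZ fell by 0.70 ± 0.12 on the log2 scale, to 0.614 of the PIG-EMPTY level (95% interval of the log2 fold change -0.95 to -0.46; edgeR, adjusted p = 0.00064). The size rests on which PIG-EMPTY library is kept, at -0.36 without replicate 1 and -0.99 without replicate 2. The DESeq2 Wald test, with a larger error (-0.71 ± 0.31), did not call it (adjusted p = 0.261). Nor did the edgeR test with no filter on low counts (adjusted p = 0.0937). An opposite-strand gene (ENSG00000257764) covers 34% of the LYZ exon bases but had 0 and 0 reads in PIG-LONA, against 0 and 4 reads in PIG-EMPTY. Of the 50-base stretches of LYZ transcripts, 35.8% also occur in other genes, read on either strand. The opposite-strand gene shares the most of them, so this figure is in part the same overlap. The LYZ count is less certain than those of PRTN3, ELANE, CTSG, CFD and MPO, which share none.

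Monocyte markers were lower together with LYZ. Of 17 markers, LYZ among them, 15 were tested and 12 fell, with a median log2 fold change of -0.70, where 3.51% of all tested genes fell. Without LYZ, 11 of 14 tested markers fell and their CPM summed to 329 and 342 in PIG-LONA, against 501 and 526 in PIG-EMPTY. None of the 17 was at 0 in all libraries. VCAN, the proteoglycan versican of classical monocytes, fell by 0.74 ± 0.05 and S100A9, a calgranulin subunit, fell by 0.67 ± 0.05 on the log2 scale (edgeR, adjusted p = 1.01e-08 and 5e-08). Unlike LYZ, the other markers summed to no more in PIG-EMPTY replicate 1 than in replicate 2. Their part in the LYZ result was not tested.

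RNASE2 encodes the eosinophil-derived neurotoxin and RNASE3 the eosinophil cationic protein, antiviral and antibacterial ribonucleases that arose by duplication. RNASE2 (ENSG00000169385, chr14:20955452-20956436, plus strand) had 248.6 and 234.9 CPM in PIG-LONA, against 233.6 and 234.6 CPM in PIG-EMPTY, so PIG-LONA replicate 2 was level with the PIG-EMPTY libraries. RNASE3 (ENSG00000169397, chr14:20891399-20892348, plus strand), 63.1 kb away, had 15.9 and 13.7 CPM in PIG-LONA, against 15.5 and 15.7 CPM in PIG-EMPTY. Neither passed, at log2 fold changes of 0.05 ± 0.04 for RNASE2 and -0.08 ± 0.08 for RNASE3 (edgeR, adjusted p = 0.578 and 0.658). Per RNASE3 read there were 15.6 and 17.1 RNASE2 reads in PIG-LONA, against 15.1 and 14.9 in PIG-EMPTY, so the paralogs with the long shared promoter run differed widely in level in every library. Of their 50-base stretches, 3.26% in RNASE2 and 5.37% in RNASE3 are shared, which the counting could split or drop. Other genes of eosinophils, basophils and mast cells were scarce. Of 15 such markers 7, the eosinophil proteins EPX, PRG3 and CLC among them, had no read in any library, and all 15 summed to 4.38 and 2.68 CPM in PIG-LONA and 3.49 and 3.85 CPM in PIG-EMPTY. MS4A2 and CCR3, the 2 that were tested, did not pass, at log2 fold changes of 0.12 ± 0.24 and -0.33 ± 0.33. Neither had an unadjusted p under 0.05 in edgeR or a call by limma-voom, and DESeq2 did not call MS4A2.

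SERPINB10, the bomapin gene (ENSG00000242550, chr18:63897174-63936111, plus strand), had 62 and 72 reads in PIG-LONA, against 52 and 67 reads in PIG-EMPTY. The groups overlapped at 2.07 and 1.87 CPM in PIG-LONA, against 1.75 and 2.06 CPM in PIG-EMPTY. Its log2 fold change was 0.04 ± 0.21 (95% interval -0.40 to 0.47; edgeR, adjusted p = 0.957). SERPINB2, the plasminogen activator inhibitor gene beside it, overlaps 20.3% of the SERPINB10 exon bases on the same strand, so reads there could be assigned to neither or to either. SERPINB2 fell to 7.22 and 8.01 CPM in PIG-LONA, against 15.1 and 15.9 CPM in PIG-EMPTY, a log2 fold change of -1.02 ± 0.09 (edgeR, adjusted p = 5.6e-07). It was the single one of 57 tested neighbours within 250 kb of any member to pass, where 6.44% of all tested genes did.

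**Figure D4:**
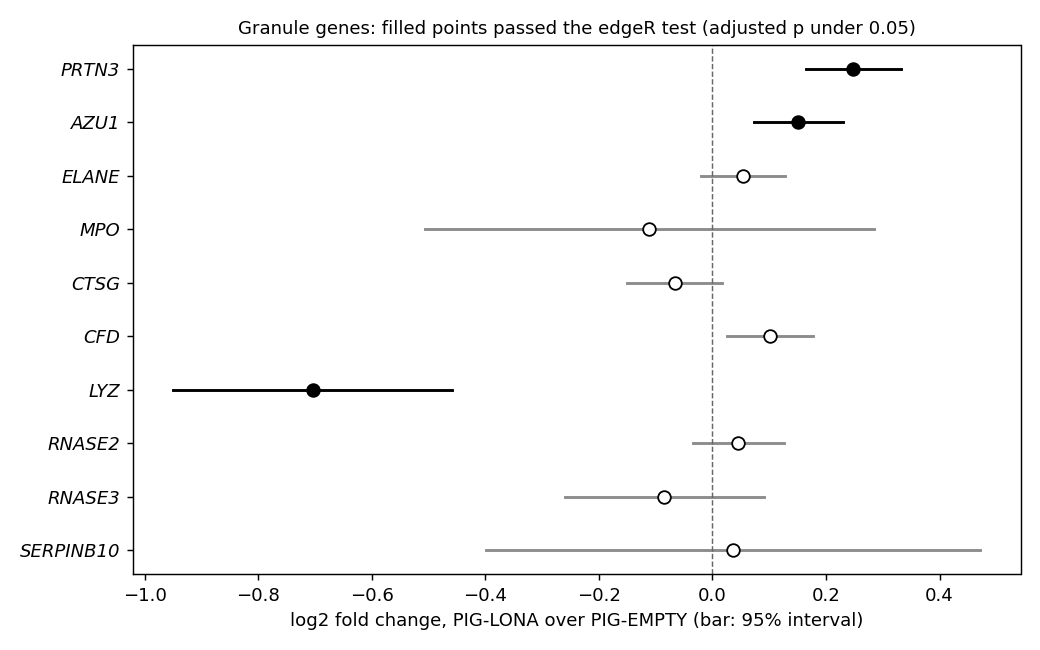
Log2 fold change of PIG-LONA over PIG-EMPTY for each granule gene with its 95% interval; filled points passed the edgeR test. PRTN3 at 0.25 and AZU1 at 0.15 lie right of 0, LYZ at -0.70 lies left of it, and the intervals of MPO and SERPINB10 are the widest.

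Among other genes of the azurophil granule the calls were downward, where 3.51% of all tested genes were called lower and 2.93% higher. Of 25 listed 18 were tested, and the 4 that passed all fell: FUCA1, a lysosomal fucosidase (-0.50 ± 0.07, adjusted p = 0.000121), STOM, a membrane scaffold protein (-0.33 ± 0.05, adjusted p = 0.000193), CD63, the granule membrane tetraspanin (-0.18 ± 0.04, adjusted p = 0.0138), and PSAP, the precursor of the saposins (-0.14 ± 0.04 on the log2 scale; edgeR, adjusted p = 0.028). In edgeR 0 of the 18 rose, with 1 higher at an unadjusted p under 0.05 and 0 called higher by DESeq2 or limma-voom. The list had a median log2 fold change of -0.10 over the 18 and summed to 1238 and 1229 CPM in PIG-LONA, against 1314 and 1329 CPM in PIG-EMPTY. With no filter on low counts 2 of them fell. The number also moved with 1 library left out, where 1 group holds a single library.

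Among genes of the later specific and gelatinase granules the calls were downward too, where 3.51% of all tested genes were called lower. Of 22 listed, 11 were tested and 6 fell, with a median log2 fold change of -0.50, and 7 of the others, the hallmark proteins LTF, LCN2, CAMP, CEACAM8, OLFM4, PGLYRP1 and CD177, were too low to test, at 0 to 14 reads a library. CHI3L1 (0.45 ± 0.14) and TCN1 (0.48 ± 0.15), which had positive values, did not pass. Both passed higher with the GC and length trend removed (0.46 and 0.48, edgeR, adjusted p = 0.0375 and 0.0455). With a single PIG-LONA library kept, their values were 0.31 and 0.39 without replicate 1, and 0.61 and 0.59 without replicate 2. MMP9, the gelatinase B of the tertiary granule, had 38.5 and 36.2 CPM in PIG-LONA, against 69.5 and 69.5 CPM in PIG-EMPTY, a log2 fold change of -0.90 ± 0.05 (edgeR, adjusted p = 3.8e-10). CYBB, the catalytic subunit of the phagocyte oxidase, fell by 0.30 ± 0.04, and MMP8, the neutrophil collagenase, fell by 0.85 ± 0.15 on the log2 scale (edgeR, adjusted p = 2.59e-05 and 0.000988). With no filter on low counts, 3 of the list passed lower. FCN1, among the 6 that fell, is also among the 12 monocyte markers that fell, and the monocyte sums without LYZ given above (329 and 342 CPM in PIG-LONA, against 501 and 526 CPM in PIG-EMPTY) moved with this list; their part in it was not tested.

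All 26 genes that process and sort granule proteases were tested, and 3 passed, where 6.44% of all tested genes did. The 23 that missed the threshold included CTSC, the dipeptidyl peptidase that activates the serine proteases (-0.08 ± 0.04). SRGN, the proteoglycan serglycin that packs them, was also among these (-0.08 ± 0.03). RAB44, a large Rab GTPase of granulated cells, rose by 0.22 ± 0.05, SORT1, the sorting receptor sortilin, fell by 0.49 ± 0.11, and HMOX1, which degrades haem, fell by 0.56 ± 0.17 on the log2 scale (edgeR, adjusted p = 0.00555, 0.00607 and 0.0467). HMOX1 kept its call in 8 of 17 alternative settings, SORT1 in 14 of 17 and RAB44 in 14 of 16. All 3 calls were lost when PIG-EMPTY replicate 2 was left out, and the number called in the list also moved without PIG-LONA replicate 1. Either fit holds a single library in 1 group. RAB44 lies on chromosome 6, where 226 of 799 tested genes were higher and 14 lower in PIG-LONA, with a median log2 fold change of 0.17; no member lies there.

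Among 14 listed protease inhibitor genes, 10 were tested and the 4 that passed fell, where 3.51% of all tested genes did. Not all of the 14 encode inhibitors of the members' proteases. These were SERPINB2, SERPINA1, which encodes the main plasma inhibitor of elastase (-0.71 ± 0.09, adjusted p = 5.27e-05), SERPINB9, an inhibitor of granzyme B (-0.21 ± 0.05, adjusted p = 0.0156), and SPINT1, a Kunitz-type inhibitor (-0.49 ± 0.13; edgeR, adjusted p = 0.0311). SERPINB1, the cytosolic inhibitor of elastase, proteinase 3 and cathepsin G, had a log2 fold change of 0.06 ± 0.04 and did not pass. SERPINB1 and SERPINB9 lie on chromosome 6, whose tested genes had a median log2 fold change of 0.17. By DESeq2, 2 of the list passed lower, and the number also dropped with either PIG-EMPTY replicate left out.

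Of 21 regulators known to act on granule genes, 18 were tested, 1 rose and 5 fell, with a median log2 fold change of -0.02. Of all tested genes 2.93% rose and 3.51% fell. GFI1, a repressor needed for neutrophil development, rose by 0.13 ± 0.04 (edgeR, adjusted p = 0.0346), and this call was lost without either PIG-EMPTY replicate, by DESeq2 (adjusted p = 0.0853) and with no filter on low counts (adjusted p = 0.0849). ETS1 (-0.30 ± 0.05, adjusted p = 0.000852), PPARG (-0.46 ± 0.08, adjusted p = 0.00101), CEBPD (-0.25 ± 0.05, adjusted p = 0.00186), CEBPB (-0.39 ± 0.08, adjusted p = 0.00294) and SPI1, which encodes PU.1 (-0.13 ± 0.04; edgeR, adjusted p = 0.0346), fell. By DESeq2, 3 regulators passed lower, and the number also dropped without PIG-EMPTY replicate 1. CEBPA and MYB did not pass (-0.02 ± 0.04 and 0.05 ± 0.04). MYB lies on chromosome 6, whose tested genes had a median log2 fold change of 0.17. SPI1 kept its call in 10 of 17 alternative settings and CEBPB in 15.

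Relatives of the members in the same gene families were mostly too low to test. Of 43 such genes 17 had no read in any library and 9 were tested. Over all tested genes 6.44% were called in either direction. RNASET2, an acid ribonuclease encoded on chromosome 6, rose by 0.21 ± 0.04, and SERPINB2 and GZMA, the granzyme A of cytotoxic lymphocytes (-0.52 ± 0.08), fell (edgeR, adjusted p = 0.00449 for RNASET2 and 0.000337 for GZMA). The RNASET2 call was lost without PIG-EMPTY replicate 1.

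Many markers of other lineages were too low to test. Calls among the tested ones stand beside the 6.44% of all tested genes called in either direction. Of 17 erythroid and megakaryocyte markers 10 had no read and 3 were tested. The list summed to 13.5 and 13.8 CPM in PIG-LONA, against 15.04 and 14.84 CPM in PIG-EMPTY, mostly from EPOR (-0.02 ± 0.08). PPBP, the platelet basic protein, fell to 0.20 and 0.36 CPM in PIG-LONA, against 1.65 and 1.51 CPM in PIG-EMPTY (edgeR, adjusted p = 0.000129). Of 16 lymphoid markers 5 were tested, and IL7R fell (-0.25 ± 0.05, adjusted p = 0.00151), at summed levels of 369 and 397 CPM in PIG-LONA, against 391 and 397 CPM in PIG-EMPTY. Of 12 myeloid blast markers 7 were tested: FLT3, a receptor kinase of progenitors, rose by 0.44 ± 0.05, and ANPEP, the CD13 antigen, fell by 0.57 ± 0.06 on the log2 scale (edgeR, adjusted p = 2.04e-05 and 2.16e-06).

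The genes with the pattern most like that of PRTN3 were sought among 12422 genes by the root mean square difference of log2 CPM, centred over the 4 libraries. They were HMGA1 (0.00425), NR4A1 (0.00434), SGCB (0.00882), TCF19 (0.0129) and KLF11 (0.0136 log2 units). Of these HMGA1 and TCF19, both on chromosome 6, passed the edgeR test, at log2 fold changes of 0.25 ± 0.04 and 0.23 ± 0.05 (adjusted p = 0.000134 and 0.00375). The TCF19 call was lost when PIG-EMPTY replicate 2 was left out. With 4 libraries, many genes can follow such a pattern closely. AZU1 was not among the 5.

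**Figure D5:**
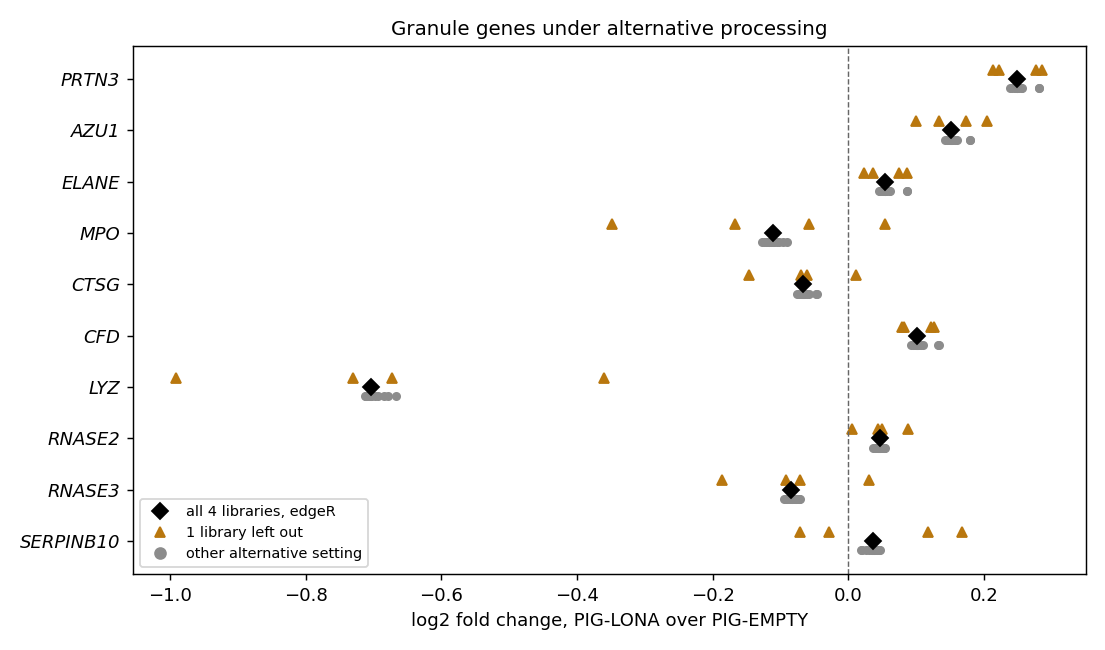
Log2 fold change of PIG-LONA over PIG-EMPTY for each granule gene in all 4 libraries (black diamonds), with 1 library left out (triangles) and in the other alternative settings (grey). PRTN3 stays between 0.21 and 0.29, LYZ spans -0.99 to -0.36, and the values of CTSG, MPO, RNASE3 and SERPINB10 cross 0 when 1 library is left out.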

How the data were processed

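The values are whole-number read counts for each Ensembl gene, as deposited by the authors. Per the labels' protocols, poly(A) RNA with an integrity number (RIN) above 9 entered a strand-marking kit (NEBNext Ultra II Directional). FastQC 0.11.4, STAR 2.5, HTSeq and the build hg38 are named in the submitters' processing notes. Which annotation and which strand setting the counting used is not given in the sources used here, so overlapping and near-identical genes are uncertain. The 67062 rows were joined to 67017 gene IDs, of which 60357 had a symbol; rows without one held at most 0.0743% of the counts.

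In R 4.3.3, edgeR 4.0.16 (filterByExpr with minimum count 10 and minimum total 15, TMM scaling, glmQLFit with the legacy form off, glmQLFTest, two-sided) tested 15918 genes. P-values were adjusted by Benjamini-Hochberg over all of them. CPM use TMM-scaled totals, and TPM use GENCODE 29 exon lengths. The common biological coefficient of variation was 2.95%. The chi-square per gene between replicates was 4.67 for PIG-LONA and 1.81 for PIG-EMPTY, so all 4 libraries were kept apart. On simulated counts the test recovered 44% of 1.2-fold changes, 72% of 1.5-fold, 80% of 2-fold and 95.7% of 4-fold changes. Of 147 calls there, 4 were false. Changes under 1.2-fold were not simulated. Both groups were simulated with the same dispersion for each gene, and the changes were set in genes drawn at random. In the real libraries PIG-LONA replicates spread more than PIG-EMPTY replicates, and many chromosome 6 genes were higher together. The simulation held neither, so its rates may not apply to these data. Standard errors and intervals come from the quasi-likelihood fit. It draws each gene's error, from 2 libraries per group, toward that of all tested genes, so they are not that gene's own spread alone.

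Up to 3 genes per list (2 per marker list) with the smallest p past the threshold and at least 50 reads on average in the higher group were named, or, where no gene of a list met both, the 2 with the highest mean count (MS4A2, CCR3, EPOR and PPBP). CTSC, SRGN, SERPINB1, CHI3L1, TCN1, PSAP, SPINT1, GFI1, CEBPB, SPI1, CEBPA, MYB, PTPRC, CD33, KISS1R, HCN2, PLPPR3, FCN1 and the untested specific granule genes were added once their values were known. The members and lists were chosen with earlier results of these data known. Alternatives were other scalings, DESeq2 1.42.0, limma-voom (limma 3.58.1), the edgeR legacy form, other filters, a replicate block, genes of chromosome 6 left out, a GC and length correction, each library left out, and adjusted p under 0.01.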

Additional observations from a re-analysis of the deposited data

How the results depend on the processing

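Over 17 alternatives PRTN3 kept its call, AZU1 lost it in 4 and LYZ in 2, and of 28 genes named by the rule that passed, 17 passed under every setting that gave an adjusted p. Of 17 settings, PSAP, SPINT1 and GFI1, named outside the rule, passed in 12, 11 and 12. Leaving out each library gave 157 to 1222 genes higher (467 with all) and 309 to 1109 lower (558 with all), with 1 to 4 members higher and 1 to 2 lower. Genes higher and lower were most numerous without PIG-LONA replicate 1 and fell to 277 and 367 without PIG-EMPTY replicate 1, and to 157 and 309 without PIG-EMPTY replicate 2. Without either PIG-EMPTY replicate 1 member was higher, without PIG-LONA replicate 2 there were 4 (CFD and ELANE added), and without PIG-LONA replicate 1 there were 2 lower (CTSG added). The DESeq2 Wald test gave 219 genes higher and 254 lower, with 0 members lower. No filter on low counts gave 140 higher and 194 lower, with 1 member higher and 0 lower. Adjusted p under 0.01 gave 228 higher and 300 lower, with 1 member higher. Without chromosome 6 genes 219 were higher. Signs turned for genes that had not passed, and their values with each library left out ran from -0.35 to 0.0535 for MPO, -0.15 to 0.0119 for CTSG, -0.19 to 0.0297 for RNASE3, -0.0719 to 0.17 for SERPINB10 (-0.0289 without PIG-LONA replicate 1) and -0.37 to 0.58 for MS4A2. EPOR was 0.0034 with the GC and length trend removed and 0.0027 with the replicate block as well. The cause was not tested. The labels do not say that a replicate number is shared between vectors, and deviations of same-numbered libraries correlated at r = 0.0288 over 15918 genes. A fit with the replicate block gave 498 genes higher and 603 lower, with 2 members higher and 1 lower, and CHI3L1 passed higher there (0.45, adjusted p = 0.0399). Of 408 counts over gene lists, 349 stayed within 1.5 times. Depth limits MPO and SERPINB10, at 52 to 107 reads a library.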
